A study of Mus musculus with 15 samples.

Results

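Core promoters, the stretches of DNA around the sites where transcription starts, were examined as regions of open chromatin in mouse pancreatic islets. The members were the ATAC-seq peaks that the authors annotated as promoter within 1 kb of a start site, counted as 1 row per position in each of 4 deposited comparisons. They made up 5295 of 7826 peaks (67.7%) between genotypes before partial pancreatectomy (PPx, an operation that takes out a portion of the gland) and 7650 of 13111 (58.3%) between genotypes after it. Over time they made up 5177 of 8070 peaks (64.2%) in control islets and 7656 of 12767 (60.0%) in βKO islets. Merged over the comparisons, promoter peaks formed 7910 loci, of which 4772 (60.3%) were listed in all 4 and 314 in 1. Every peak was 601 bp wide.

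The islets came from 15 male mice aged 3 months. All of them carried floxed Arid1a alleles (Arid1aFl/Fl) and MIP-rtTA, a doxycycline-dependent activator under an insulin promoter. The βKO mice also carried TRE-Cre, which the activator switches on. Doxycycline was given in the water at 1 g/L for 2 weeks, and PPx followed 1 week after withdrawal. Before PPx there were 4 control and 3 βKO mice, and at 6 days after PPx there were 4 of each. The controls thus differ from βKO mice by the lack of Cre and not by the floxed alleles or the activator. Whole islets were profiled, so fewer open cells and less signal per cell cannot be told apart.

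An active promoter is usually held free of nucleosomes just upstream of its start site, where general transcription factors and RNA polymerase assemble. In ATAC-seq the Tn5 transposase cuts such stretches more readily than DNA wrapped in nucleosomes. The Arid1a product binds DNA as part of the BAF form of SWI/SNF, a remodelling complex that uses ATP to slide or evict nucleosomes at enhancers and promoters. Promoters rich in CpG dinucleotides, many of them of genes used in all cells, tend to be open across tissues.

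Values are the authors' group means of log2 read concentration, so a difference of 1 unit corresponds to a fold change of 2 in normalised reads. Values of single libraries were not analysed here, and the depth of each library is unknown. The spread between mice enters through the deposited p-values, which imply a median standard error at promoters between 0.37 and 0.46 on the log2 scale. No Arid1a promoter was among the peaks. The targeted gene was represented by a peak in exon 9 of 20, at 1.21 in control and 5.49 in βKO islets before PPx and at 0.40 and 4.04 after it in the authors' deposited table. That peak was called in 0 of 4 control libraries at each time, in 3 of 3 βKO libraries before PPx and in 3 of 4 after it. Which exon the floxed allele removes is not given in the sources used here, so a higher value there does not check the deletion.

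The labelled tissue was visible at promoters of β cell genes, among them Ins1, Foxa2, Nkx6-1, Pax6, Isl1 and Rfx6. After PPx, 8 of 16 genes of islet hormones and secretory granules and 9 of 24 β cell transcription factors and maturation genes had a promoter peak. Promoters of Ins2, Pdx1, Slc2a2, Gcg and Sst had no row in the tables used and were not analysed here. Markers of other cells had few promoter peaks. After PPx, 1 of 8 acinar genes had one (Bhlha15, at 3.06 in control and 3.15 in βKO islets by the authors' deposited table), and 0 of 6 duct, 0 of 5 endothelial, 0 of 5 stromal and 0 of 6 leukocyte genes did.

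Sequence just upstream of the start is shown for 8 promoters. Hacd1, Tmem268 and Ublcp1 were among the largest differences between genotypes after PPx, Morn2, Psmd1 and Casp9 among the largest gains over time in βKO islets, and Hjurp and Pgk1 were among the strongest promoter peaks. Each run covers the 150 bases before the RefSeq start (GRCm38.p6), read 5′ to 3′ along the gene, with capitals marking matches to any of 9 short motifs on either strand.
Hacd1, chr2:14056036-14056185, minus strand: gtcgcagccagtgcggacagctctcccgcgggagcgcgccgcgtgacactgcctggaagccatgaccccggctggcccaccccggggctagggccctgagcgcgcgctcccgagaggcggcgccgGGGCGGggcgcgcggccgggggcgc
Tmem268, chr4:63558613-63558762, plus strand: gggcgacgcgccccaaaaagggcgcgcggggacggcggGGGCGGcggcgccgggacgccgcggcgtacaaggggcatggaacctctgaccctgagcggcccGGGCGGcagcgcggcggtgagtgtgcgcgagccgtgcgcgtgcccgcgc
Ublcp1, chr11:44470549-44470698, minus strand: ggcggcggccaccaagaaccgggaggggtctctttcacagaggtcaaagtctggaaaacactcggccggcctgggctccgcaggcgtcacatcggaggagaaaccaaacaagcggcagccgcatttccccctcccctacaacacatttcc
Morn2, chr17:80290062-80290211, plus strand: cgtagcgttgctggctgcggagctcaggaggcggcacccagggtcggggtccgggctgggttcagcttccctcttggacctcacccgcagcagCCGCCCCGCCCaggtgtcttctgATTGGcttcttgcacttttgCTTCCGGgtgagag
Psmd1, chr1:86064469-86064618, plus strand: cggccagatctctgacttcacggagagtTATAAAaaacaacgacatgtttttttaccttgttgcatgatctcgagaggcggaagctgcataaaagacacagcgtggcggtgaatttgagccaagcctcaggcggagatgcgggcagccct
Casp9, chr4:141793462-141793611, plus strand: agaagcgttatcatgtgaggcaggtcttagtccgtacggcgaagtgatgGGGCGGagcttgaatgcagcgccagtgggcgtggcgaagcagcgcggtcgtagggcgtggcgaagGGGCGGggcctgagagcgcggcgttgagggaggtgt
Hjurp, chr1:88277580-88277729, minus strand: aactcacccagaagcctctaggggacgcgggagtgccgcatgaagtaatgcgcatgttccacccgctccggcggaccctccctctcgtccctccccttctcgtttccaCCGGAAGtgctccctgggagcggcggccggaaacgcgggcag
Pgk1, chrX:106186950-106187099, plus strand: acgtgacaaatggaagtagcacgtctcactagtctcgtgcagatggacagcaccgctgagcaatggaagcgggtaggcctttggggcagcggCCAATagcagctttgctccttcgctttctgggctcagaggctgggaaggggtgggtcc
The stretches differed widely in composition although 6 of the 8 genes were chosen for a gain. The Tmem268 run held 29 CpG dinucleotides and was 80.7% G or C, while the Psmd1 run held 9 CpG and was 50.7% G or C. Matches to the GC box (GGGCGG), the element bound by Sp1 and related factors, stood in 4 of the runs, and the TATA motif (TATAAA) in the Psmd1 run. Over all 32851 RefSeq starts, 28.6% of the same 150-base stretches held a GC box, 24.5% the NF-Y motif (CCAAT), 5.52% the ETS motif (CCGGAAG) and 7.57% the TATA motif. The Ublcp1 run held none of the 9.

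Before PPx, promoter accessibility was close to equal in the 2 genotypes. The median promoter read 4.18 in control islets and 4.19 in βKO islets, and the median log2 change of 0.04 lay between quartiles of -0.19 and 0.26. Peaks outside promoters had a median of -0.12. In the authors' deposited table, made with DiffBind, 0 promoters were higher and 0 lower at a false discovery rate (FDR) under 0.05, against 0.0128% of all peaks higher (the Arid1a exon peak) and 0% lower. At an unadjusted p under 0.05, 40 promoters were higher and 45 lower, against 0.843% and 2.3% of all peaks. The FDR was listed as 1 at all 5295 promoters. With 4 and 3 mice and standard errors of 0.41 at the median promoter, small differences at single promoters were not detectable here.

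The promoters with the smallest p before PPx were genes of varied function. Cldn1, a tight-junction protein gene, read 3.01 in control islets and 4.32 in βKO islets (p = 0.00372, FDR 1, in the authors' deposited table). Its peak was called in 0 control and 3 βKO libraries. Rab9, an endosomal GTPase gene, read 2.86 and 4.34, Ttf2, a transcription termination factor gene, 4.02 and 5.03, and the cyclin-dependent kinase gene Cdk14 3.65 and 4.71 in the authors' deposited table. In the other direction Lrrc74b read 4.21 in control islets and 2.67 in βKO islets, the nucleotide sugar transporter gene Slc35b1 3.85 and 2.23, and Pias3, a STAT inhibitor gene, 3.74 and 2.17 in the authors' deposited table. Ldlrad3 read 4.54 and 3.44. Each of these 4 was called in 2 or 3 control libraries and in 0 βKO libraries. The Ins1 promoter read 4.12 in control islets and 5.08 in βKO islets (p = 0.0307, FDR 1, in the authors' deposited table), and Nkx6-1 read 4.29 and 4.04.

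**Figure D1:**
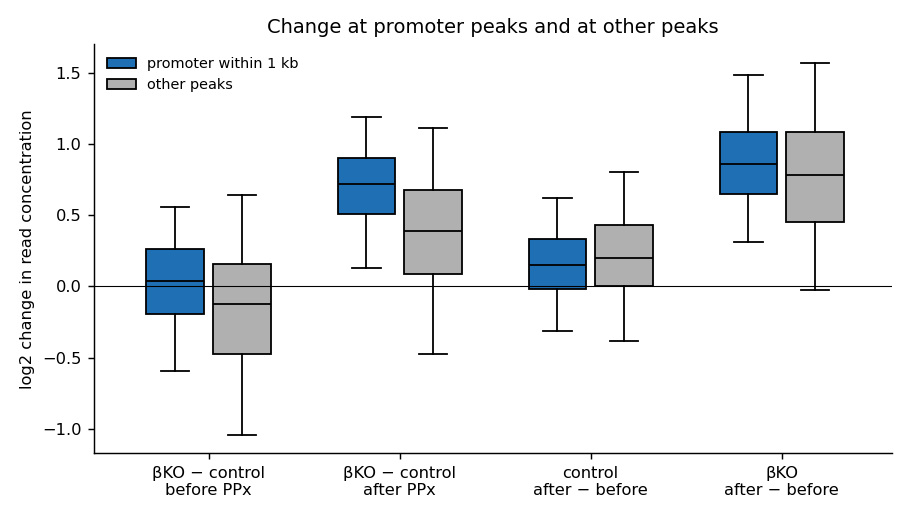
Log2 change in read concentration (vertical axis) in the 4 comparisons for promoter peaks (blue) and other peaks (grey), as the authors deposited it. Boxes span the quartiles, lines are medians and whiskers reach the lowest and highest 5% of peaks. Promoter medians were 0.04, 0.72, 0.15 and 0.86 from left to right.

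After PPx, almost all promoters had a higher deposited level in βKO islets than in controls. The median promoter read 3.73 in control islets and 4.41 in βKO islets, and the median log2 change was 0.72 (1.65-fold), with 97.5% of promoters above 0. In the authors' deposited table, 1137 promoters (14.9%) were called higher at an FDR under 0.05, against 9.88% of all peaks, and 0 were called lower, against 0.0839% of all peaks. At an unadjusted p under 0.05 the numbers were 3553 higher and 4 lower of 7650 promoters, against 4331 and 69 of all 13111 peaks. The median was 0.61 over all peaks of this comparison, promoters included, and 0.39 over peaks outside promoters. How the authors scaled the libraries is not given in the sources used here, and its part in this one-way shift was not tested. Relative to that median, in an approximate test with standard errors derived from the deposited p-values, 0 promoters were higher, against 0.0153% of all peaks, and 4 were lower, against 0.381%. Every gain named for this comparison is as deposited, and none of them passed relative to the median.

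The number of libraries in which a promoter peak was called moved with this difference. After PPx, 7425 promoter peaks (97.1%) were called in at least 2 βKO libraries and 3925 (51.3%) in at least 2 control libraries, and 1961 were called in 0 control libraries. Before PPx the shares were 78.8% of the listed promoters in βKO and 75.0% in control libraries. There were 3 βKO and 4 control libraries then, so the rule of at least 2 was stricter for βKO. Promoters called in all 4 control libraries after PPx had a median change of 0.75, those called in none 0.76 and those called in 1 library 0.63. The share called higher was 23.1%, 8.11% and 10.1% in that order. Only 3 listed promoters were called in 0 βKO libraries, so nearly all of the 1961 were listed through βKO libraries. Their median change and the contrast of 97.1% with 51.3% follow in part from that. The part that library quality or depth has in the general gain was not tested.

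The smallest FDR belonged to Pttg1, which encodes securin, the inhibitor of separase at anaphase. Its promoter (chr11:43425976-43426576) read 2.20 in control islets and 4.38 in βKO islets, a log2 change of 2.18 with a standard error of 0.45 (FDR 0.00701, in the authors' deposited table). No control library had the peak, and 4 of 4 βKO libraries did. Rfxap, a subunit of the RFX complex that drives MHC class II genes, read 3.30 and 4.89, with FDR 0.0118 by the authors' deposited table. The same pattern of calls, none in control and 4 in βKO libraries, held there. Psmd1, a subunit of the proteasome's regulatory particle, read 3.09 and 4.68, and Thyn1 4.47 and 5.81, both with FDR 0.0154 by the authors' deposited table.

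Among called promoters of at least median strength, the 12 largest changes lay between 1.40 and 1.64 on the log2 scale by the authors' deposited table. Hacd1, an enzyme gene of very-long-chain fatty acid synthesis, led at 3.07 in control and 4.71 in βKO islets (log2 change 1.64, standard error 0.41, FDR 0.0212, in the authors' deposited table). The ribosome assembly factor gene Pdcd2 stood at 3.97 and 5.48, and Npm1, which encodes the nucleolar protein nucleophosmin, 3.89 and 5.37 in the authors' deposited table. Dusp4, a phosphatase gene that switches off MAP kinases, read 3.36 and 4.80, and Cyfip2, an actin regulator gene of the WAVE complex, 3.13 and 4.69 in the authors' deposited table. The vacuolar proton pump gene Atp6v1a read 4.06 and 5.47, and Tmco1, a calcium channel gene of the endoplasmic reticulum, 3.28 and 4.72 in the authors' deposited table. Rsrc1, Tmem268 and Ublcp1 changed by 1.52, 1.56 and 1.56 in the authors' deposited table. In 6 of the 12 (Hacd1, Rfxap, Rsrc1, Dusp4, Tmem268 and Cyfip2) the peak was called in 0 control libraries.

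The Ins1 promoter, at chr19:52263934-52264534, read 4.13 in control islets and 5.62 in βKO islets after PPx (log2 change 1.49, standard error 0.35, FDR 0.0154, in the authors' deposited table). It was called in 2 control and 4 βKO libraries. All mice carry an activator under an insulin promoter, and reads from that copy cannot be told apart from those of the gene. Nkx6-1, a β cell transcription factor gene, read 3.81 and 4.87 (FDR 0.0360, in the authors' deposited table), and Mafa, a factor of mature β cells, 3.43 and 3.81 (FDR 0.455).

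The strongest promoter peaks apart from Pgk1 differed by 0.56 to 0.87 on the log2 scale, on either side of the promoter median. Hjurp, a centromere chaperone gene, read 7.93 in control islets and 8.49 in βKO islets, the splicing regulator gene Khsrp 7.04 and 7.90, and the mannose 6-phosphate receptor gene M6pr 7.12 and 7.78 in the authors' deposited table. The promoter annotated to Kbtbd3 here and to Aasdhppt in the other comparisons read 6.94 and 7.76. None of these passed, with FDR values of 0.051 to 0.129 by the authors' deposited table.

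Few promoters of at least median strength failed to gain. Mir6236 read 5.69 in control islets and 5.05 in βKO islets (p = 0.0430, FDR 0.104, in the authors' deposited table). Ldlrad3 read 4.91 and 4.37, Litaf, a lysosomal membrane protein gene, 5.29 and 4.76, and the phospholipase gene Pnpla8 4.45 and 4.39 in the authors' deposited table. Relative to the table's median, the 4 lower promoters were Pgk1, Mir6236, Speer4cos and 4931408C20Rik, with approximate adjusted p-values of 4.04e-12, 0.0308, 0.0259 and 0.0257. The call at Pgk1 goes against the deposited p of 1 and rests on the error of peaks of like strength.

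**Figure D2:**
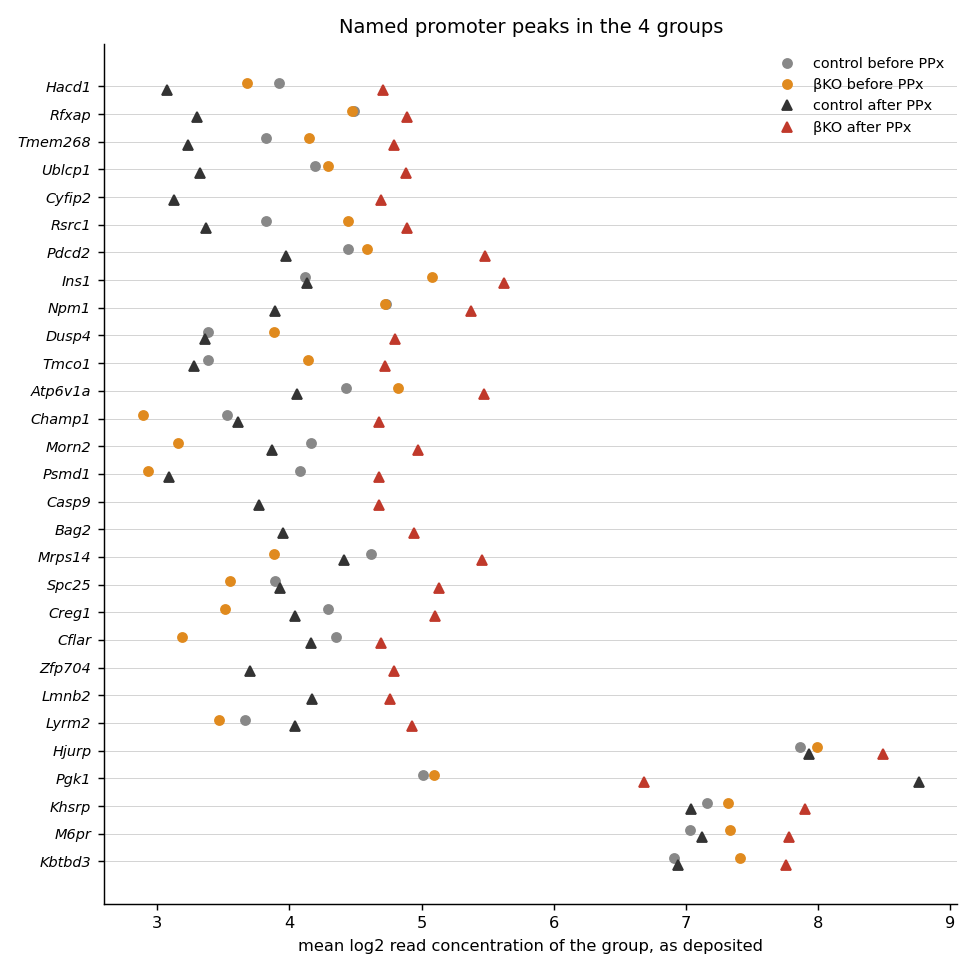
Group means of log2 read concentration (horizontal axis) at the promoters of largest called change and at the strongest promoters, before PPx (circles) and after PPx (triangles), from the genotype comparisons. The comparisons are scaled separately, so circles are to be compared with circles and triangles with triangles. βKO islets after PPx (red) lie to the right of control islets after PPx (black) at each gene except Pgk1, where control read 8.76 and βKO 6.68.

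Promoters already listed before PPx made up most of the calls. Of 5180 promoters listed in the genotype comparisons at both times, 20.1% were called higher after PPx, with median levels of 4.11 in control and 4.85 in βKO islets. The 2465 promoters listed only after PPx read 3.06 and 3.68, and 3.81% of them were called. Of these, 1494 (60.6%) were called in 0 control libraries after PPx, against 466 of the 5180 listed before. The median changes were similar, at 0.65 for promoters listed only after PPx and 0.74 for those listed at both times. Promoters below a mean concentration of about 3.5 could not be called in this comparison, whatever their p. The lower share called among promoters listed only after PPx is limited by their strength, and its part was not tested.

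The genotype comparison before PPx shares no library with that after PPx and shows how the called promoters stood at rest. At 1043 promoters called higher after PPx and listed before, the median change before PPx was 0.10, and 63.5% were above 0. At 4137 promoters not called, it was 0.03, and 52.9% were above 0. The called promoters read 4.44 in control islets and 4.55 in βKO islets before PPx, against 4.13 and 4.13 at the others. After PPx the median changes were 1.03 at the called promoters and 0.67 at the others. The called promoters were chosen by that change, so the value of 1.03 is raised by the choice and is no measure for the change at rest. Promoters below a mean concentration of about 3.5 could not be called after PPx. The higher level of called promoters at rest follows in part from that limit. The change before PPx also moved with strength. Its promoter median was -0.05 at mean concentrations of 3.5 to 4, 0.02 at 4 to 4.5 and 0.17 at 5 to 6. The part of strength in the contrast of 0.10 with 0.03 was not tested, so that contrast is not read as a trait of the called promoters.

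In control islets, promoters changed little from before to after PPx. The median promoter read 4.02 before and 4.17 after, with a median log2 change of 0.15 and quartiles of -0.02 and 0.33. Other peaks had a median of 0.20. In the authors' deposited table, 0 promoters were higher and 0 lower at an FDR under 0.05, against 0% and 0% of all peaks by DiffBind. At an unadjusted p under 0.05, 89 promoters were higher and 6 lower, against 2.43% and 0.0991% of all peaks. The FDR was 0.999 or 1 at all promoters named here.

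The lower promoters of smallest p in control islets included some of those that differed most between genotypes after PPx. Pttg1 read 3.75 before and 2.25 after PPx (p = 0.00152, in the authors' deposited table), and was called in 3 control libraries before and 0 after. Rfxap read 4.38 and 3.35 (p = 0.00388, in the authors' deposited table), called in 4 libraries before and 0 after. Jak2, a cytokine receptor kinase gene, read 3.31 and 1.95, and Cdc37l1, a co-chaperone gene also on chromosome 19, 3.44 and 2.33 in the authors' deposited table. These values share the control libraries after PPx with the genotype comparison, so they are not separate evidence. Among the higher ones, Inafm1 read 3.20 before and 4.35 after, the orphan receptor gene Gpr85 3.03 and 4.28, the splicing factor gene Hnrnph3 4.21 and 5.09, and Tescl 2.95 and 4.00 in the authors' deposited table.

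In βKO islets, nearly all promoters had a higher deposited level after PPx than before. The median promoter read 3.55 before and 4.41 after, a median log2 change of 0.86 (1.82-fold), and 98.9% of promoters were above 0. In the authors' deposited table, 760 promoters (9.93%) were called higher, against 7.44% of all peaks, and 0 were lower, against 0% of all peaks by DiffBind. At an unadjusted p under 0.05, 3581 of 7656 promoters were higher and 1 lower, against 5027 and 3 of all 12767 peaks. The median over all peaks was 0.83, and relative to it 0 promoters passed in either direction in the approximate test. The number of libraries with the peak moved here too. Of the 7656 promoters, 97.0% were called in at least 2 βKO libraries after PPx and 54.5% in at least 2 before it, out of 4 and 3 libraries. Only 1 was called in 0 libraries after PPx, against 1850 before it, so nearly all of the 1850 were listed through libraries after PPx. The contrast follows in part from that. The part that these calls or the scaling of libraries have in the result was not tested.

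Gains of at least median strength were largest at Champ1, a gene for chromosome alignment in mitosis. Its promoter (chr8:13869435-13870035) read 2.35 before and 4.72 after PPx, a log2 change of 2.37 with a standard error of 0.53 (FDR 0.0114, in the authors' deposited table). It was called in 1 of 3 and 4 of 4 libraries. Morn2 read 2.94 and 4.96, and Mrps14, a mitochondrial ribosomal protein gene, 3.65 and 5.46, both with FDR 0.0077 by the authors' deposited table. Nedd8, the ubiquitin-like protein that activates cullin ligases, read 1.75 and 4.44 at the same FDR, and its peak was called in 0 libraries before and 4 after.

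Casp9, the initiator caspase of the mitochondrial pathway, read 2.89 before and 4.77 after, and Cflar, an inhibitor of caspase-8, 2.92 and 4.69 in the authors' deposited table. Bag2, an Hsp70 co-chaperone gene, read 3.10 and 4.93, and Psmd1 2.76 and 4.68 in the authors' deposited table. The kinetochore component Spc25 read 3.32 and 5.12, and Lmnb2, the lamin B2 gene, 3.05 and 4.76 in the authors' deposited table. Creg1, Zfp704 and Lyrm2 changed by 1.80, 1.76 and 1.68 in the authors' deposited table. The FDR of these 9 promoters lay between 0.0192 and 0.0282 in the authors' deposited table. Before PPx the peaks of Casp9, Bag2, Psmd1 and Lmnb2 were called in 0 of 3 libraries. Those of Cflar, Creg1, Zfp704 and Lyrm2 were called in 1, and that of Spc25 in 2. Peaks called in 0 libraries before PPx were listed through libraries after it, where they are high.

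Of the promoters of at least median strength, 5 with the lowest change in βKO islets were Mir6236, Litaf, Hipk1, Bub3 and Ets1. The kinase gene Hipk1 read 4.20 before and 4.19 after PPx, the spindle checkpoint gene Bub3 4.20 and 4.22, the transcription factor gene Ets1 4.73 and 4.77, and Litaf 4.78 and 4.76 in the authors' deposited table. Mir6236 read 5.40 and 5.05. Before PPx, Bub3 read 3.40 in control islets and 4.43 in βKO islets, Hipk1 3.63 and 4.43, and Ets1 4.23 and 4.97 in the authors' deposited table, all at an FDR of 1. The βKO libraries before PPx enter both comparisons, and a choice by low change over time favours high values in them. The genotype values before PPx are therefore not separate evidence.

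The comparisons of genotypes after PPx and of times in βKO islets share the 4 βKO libraries after PPx. Of 7470 promoters matched between them, 1137 were called higher in the former and 760 in the latter. Called in both were 281, which is 24.7% of those called in the former and 37.0% of those called in the latter. Over all promoters, 14.9% were called in the former and 9.93% in the latter. The shared libraries and the limit on calling weak promoters enter both sets of calls, and their part in the overlap was not tested. The overlap over all peaks is not given here. Read side by side, Psmd1 differed by 1.59 between genotypes and by 1.92 over time, and Spc25 by 1.20 and 1.80 in the authors' deposited table. Pttg1 differed by 2.18 between genotypes and by 0.91 over time, at an FDR of 0.111 for the latter in the authors' deposited table. For Hspa5, the endoplasmic reticulum chaperone BiP, the log2 changes were 1.05 and 1.08 (FDR 0.0396 and 0.0468, in the authors' deposited table).

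The genotype changes at the 2 times can be set against each other, since they share no library. Over 5180 promoters matched between them, the change after PPx exceeded the change before by a median of 0.68 on the log2 scale, with quartiles of 0.43 and 0.95, and 95.7% were above 0. Over all 7504 matched peaks the median was 0.64. In the approximate test of this difference, 1 promoter passed as higher and 1 as lower (adjusted p under 0.05), against 0.0133% and 0.0133% of all matched peaks. At an unadjusted p under 0.05 there were 850 higher and 1 lower. The numbers over all matched peaks at that threshold are not given here, so these counts are not read as particular to promoters.

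The higher promoter was Psmd1. It read 4.08 in control islets and 2.93 in βKO islets before PPx and 3.09 and 4.68 after it in the authors' deposited table, so that the order of the genotypes turned. The difference of the changes was 2.74 with a standard error of 0.63 (adjusted p = 0.0467, approximated from the authors' p-values), and the peak was called in 2 control and 0 βKO libraries before PPx and in 0 and 4 after it. Relative to the median difference the adjusted p was 0.93. It was 0.0935 with peaks left out whose deposited p was 0.5 or more beside a large change, Pgk1 among them, an alternative chosen after seeing the data. Morn2 turned in the same way, from 4.16 and 3.16 before PPx to 3.87 and 4.97 after it in the authors' deposited table (approximate adjusted p = 0.138). Ninl, a centrosomal protein gene, and Agtpbp1, a tubulin-modifying enzyme gene, differed by 1.96 and 1.95, also at an approximate adjusted p of 0.138.

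The lower promoter was Pgk1, on chromosome X, which encodes the glycolytic enzyme phosphoglycerate kinase. It read 5.01 in control islets and 5.09 in βKO islets before PPx and 8.76 and 6.68 after it in the authors' deposited table. The rise in control islets was 3.97 on the log2 scale in the comparison over time, yet its p was 1 in the authors' deposited table, as was the p between genotypes after PPx. In βKO islets the rise from 4.84 to 6.67 had p = 0.00479 and FDR 0.0503 by the authors' deposited table. The difference of the changes of -2.17 (adjusted p = 0.0413, approximated from the authors' p-values) therefore rests on an error taken from other peaks. Whether all libraries of a group shared the high value was not tested.

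Gene groups were read from lists by role, 1 promoter peak or more per gene. None of them can be called particular, since the counts stand beside a general gain. The shares to read them against are 14.9% of promoters called higher between genotypes after PPx and 9.93% over time in βKO islets, with promoter medians of 0.72 and 0.86. No promoter of any list was called lower. Under Benjamini-Hochberg adjustment over all listed peaks, 26 of the 89 named calls in the 2 comparisons did not pass, among them Nkx6-1, Scg5, Scg3, Rfx6, Kdm6a, Rfc1, H2bc13, Sdhc and Hspa5 between genotypes after PPx. Before PPx and in control islets over time, 0 promoters of any list were called.

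Of the islet hormone and granule genes, 3 of 8 promoters were called higher between genotypes after PPx, with a list median of 0.98. Besides Ins1 these were Scg5, a chaperone gene of prohormone convertase 2, at 3.94 in control and 4.97 in βKO islets, and the granin gene Scg3 at 4.52 and 5.46 in the authors' deposited table. Cpe, the carboxypeptidase gene that trims prohormones, read 4.84 and 5.65 (FDR 0.0513), and the granin gene Chgb 3.48 and 4.24 (FDR 0.117) in the authors' deposited table. In βKO islets over time 2 of 8 were called, Scg5 (3.57 before and 4.97 after) and Chgb (2.78 and 4.24), in the authors' deposited table.

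Of the β cell transcription factor and maturation genes, 3 of 9 promoters were called after PPx, with a list median of 0.69. Foxa2 read 3.60 in control islets and 4.75 in βKO islets, and Rfx6 4.04 and 5.05, in addition to Nkx6-1, in the authors' deposited table. Pax6 read 5.72 and 6.41 (FDR 0.103), Isl1 3.78 and 4.63 (FDR 0.0648) and Ucn3, a late maturation marker, 3.38 and 3.43 (FDR 1) in the authors' deposited table. In βKO islets over time 1 of 9 was called, St18, from 3.87 to 5.19 in the authors' deposited table.

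Promoters of glucose sensing and exocytosis stood lower, at 0 of 7 called and a median of 0.47, below the table's median of 0.61. The incretin receptor gene Gipr read 3.49 in control islets and 3.43 in βKO islets by the authors' deposited table. G6pc2, the islet glucose-6-phosphatase gene, read 4.06 and 4.62, the vesicle GTPase gene Rab3a 4.49 and 4.96, and the calcium sensor gene Syt7 3.22 and 3.84 in the authors' deposited table. Over time in βKO islets the same list had 0 of 6 called and a median of 1.01. With 7 promoters and standard errors near 0.4, the low median is a description only.

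SWI/SNF subunit promoters had 0 of 11 called after PPx, with a median of 0.71, and 0 of 13 over time in βKO islets, with a median of 0.68. Smarca4, the BRG1 ATPase gene, had a log2 change of 0.57 between genotypes, and the BRM ATPase gene Smarca2 read 3.83 in control islets and 4.53 in βKO islets, by the authors' deposited table. Smarcd2 read 3.03 and 4.04 (FDR 0.0624, in the authors' deposited table). Of other chromatin regulators 3 of 19 were called after PPx. These were the remodeller genes Chd1 (4.64 and 5.72) and Smarca5 (4.73 and 5.68) and the H3K27 demethylase gene Kdm6a (4.57 and 5.52), in the authors' deposited table.

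Cell cycle promoters had 8 of 26 called after PPx, with a median of 0.73. They included genes of opposite roles. The cyclin genes Ccna2 and Ccne2 were called, as were the inhibitor genes Cdkn2c (p18, at 3.80 and 4.94 in the authors' deposited table), Cdkn2b, Cdkn2d and Cdkn1b. Spc25 read 3.93 and 5.13 in the authors' deposited table, and Pttg1 completed the group. Over time in βKO islets 3 of 27 were called, namely Spc25, Cdkn2d (4.92 and 6.08) and the ubiquitin ligase gene Skp2 (5.03 and 6.11) in the authors' deposited table. Of DNA replication promoters 1 of 18 was called after PPx, Rfc1 of the clamp loader, at 2.81 and 3.98, and Mcm4, a helicase subunit gene, read 5.70 and 6.38 (FDR 0.0740, in the authors' deposited table). Over time 2 of 18 were called, the clamp loader gene Rfc4 (2.14 and 4.17) and the initiation factor gene Mcm10 (3.36 and 4.66), in the authors' deposited table.

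The core histone list also holds linker histone genes, such as H1f4 and H1f2. It had 8 of 31 promoters called after PPx, among them H4c3 (3.69 in control and 4.82 in βKO islets) and H2bc13 (3.76 and 4.89) in the authors' deposited table. Histone genes are near-identical copies in clusters, so reads shared between copies make single genes uncertain. Cytosolic ribosomal protein promoters had 11 of 50 called, with a median of 0.78, led by Rpl37a (3.15 and 4.63), Rpl36al (4.89 and 6.12) and Rpl31 (3.53 and 4.77) in the authors' deposited table. Mitochondrial ribosomal protein promoters had 9 of 34, with a median of 0.81, led by Mrps28 (5.16 and 6.40) in the authors' deposited table. For βKO islets over time these 3 lists had 3 of 32, 6 of 51 and 6 of 33 called.

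Oxidative phosphorylation promoters had 7 of 43 called after PPx, including Uqcrq of complex III (4.07 and 5.22) and Sdhc of complex II (2.93 and 4.24) in the authors' deposited table. Proteasome promoters had 4 of 21 called, including Psmc6 (4.89 and 5.97) and Psmb1 (4.26 and 5.28) in the authors' deposited table. Unfolded protein response promoters had 3 of 12, namely Hspa5 (4.73 and 5.78), the disulphide isomerase gene Pdia6 (4.64 and 5.61) and Sel1l of the degradation complex (6.06 and 6.93), in the authors' deposited table. Over time the counts were 6 of 42, 5 of 21 and 2 of 12. Ndufv2 of complex I rose from 3.78 to 5.36 and the ATP synthase gene Atp5b from 4.01 to 5.34 in the authors' deposited table.

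RNA splicing promoters had 7 of 42 called after PPx, led by Srsf11 (4.42 and 5.62) and Srsf5 (2.69 and 4.32) in the authors' deposited table, and 8 of 49 over time. General transcription machinery promoters had 2 of 42 after PPx, Taf1d and the Mediator gene Med7 (4.12 and 5.07), and 6 of 43 over time, with Med7 from 3.65 to 5.07 in the authors' deposited table. Immediate early promoters had 2 of 14, Klf6 (5.67 and 6.64) and Ier5 (2.77 and 4.06), in the authors' deposited table, and 0 of 14 over time. Over the lists with at least 5 peaks, medians ranged from 0.47 to 0.98 after PPx and from 0.67 to 1.01 over time. Relative to the median of all peaks over time (0.83), the β cell factor, SWI/SNF, chromatin regulator, cell cycle and immediate early lists stood below 0.

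**Figure D3:**
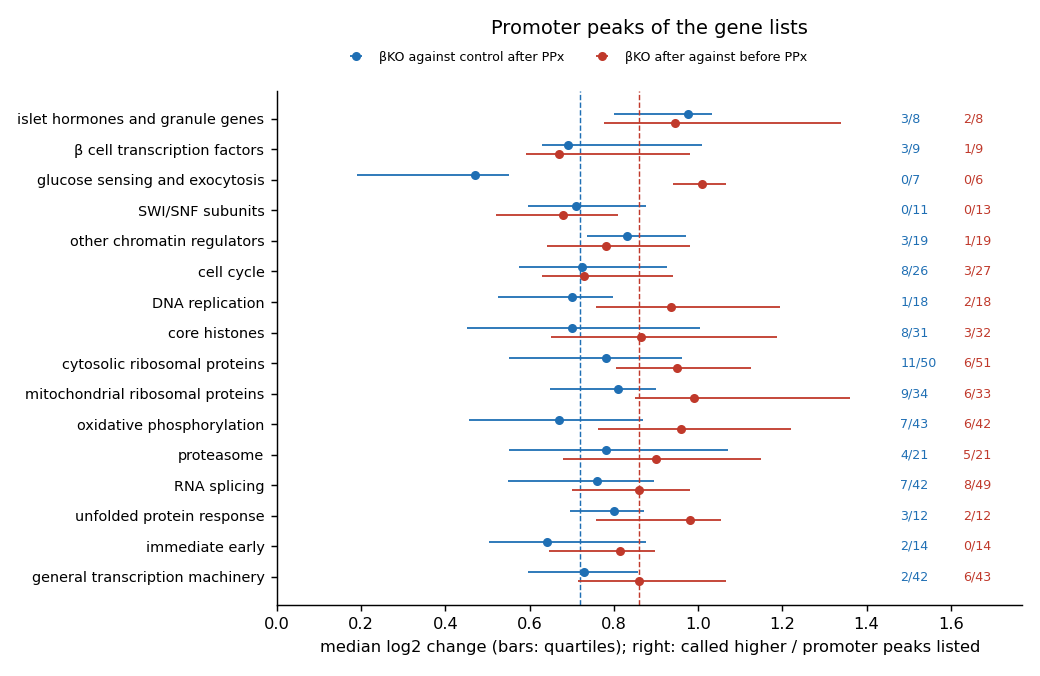
Median log2 change of the promoter peaks of each list with at least 5 peaks, between genotypes after PPx (blue) and over time in βKO islets (red). Bars span the quartiles, dashed lines mark the medians of all promoters (0.72 and 0.86), and the figures at right give promoters called higher of those listed. The quartiles include the dashed line except for hormones and granules and other chromatin regulators (to its right, blue), glucose sensing and exocytosis (left in blue, right in red) and SWI/SNF subunits (left in red).

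Changes and calls were also read by the strength of the peak. Between genotypes after PPx, promoters with a mean log2 concentration of 3 to 3.5 had a median change of 0.62, those of 5 to 6 a median of 0.79 and those of 6 or more a median of 0.77. Other peaks of the same strengths had medians of 0.36, 0.60 and 0.41. The share called higher was 0%, 31.0% and 22.0% for these promoters and 0.0558%, 17.3% and 5.88% for other peaks. In βKO islets over time the promoter medians were 0.87, 0.84 and 0.72, with 3.20%, 14.7% and 5.74% called, so the median did not rise with strength there. In the authors' deposited table of genotypes after PPx, promoters below a concentration of about 3.5 carry an FDR of 1 whatever their p. Among them were 352 with an unadjusted p under 0.05. Over time in βKO islets that limit was about 3.19, with 200 such promoters. With Benjamini-Hochberg adjustment over all listed peaks instead, 467 promoters were higher between genotypes after PPx and 433 over time in βKO islets. Of the 5891 promoters with an FDR under 1, 19.3% were called, against 5.92% of 2686 other peaks. For βKO islets over time the corresponding shares were 11.3% of 6742 promoters and 5.66% of 3356 other peaks.

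**Figure D4:**
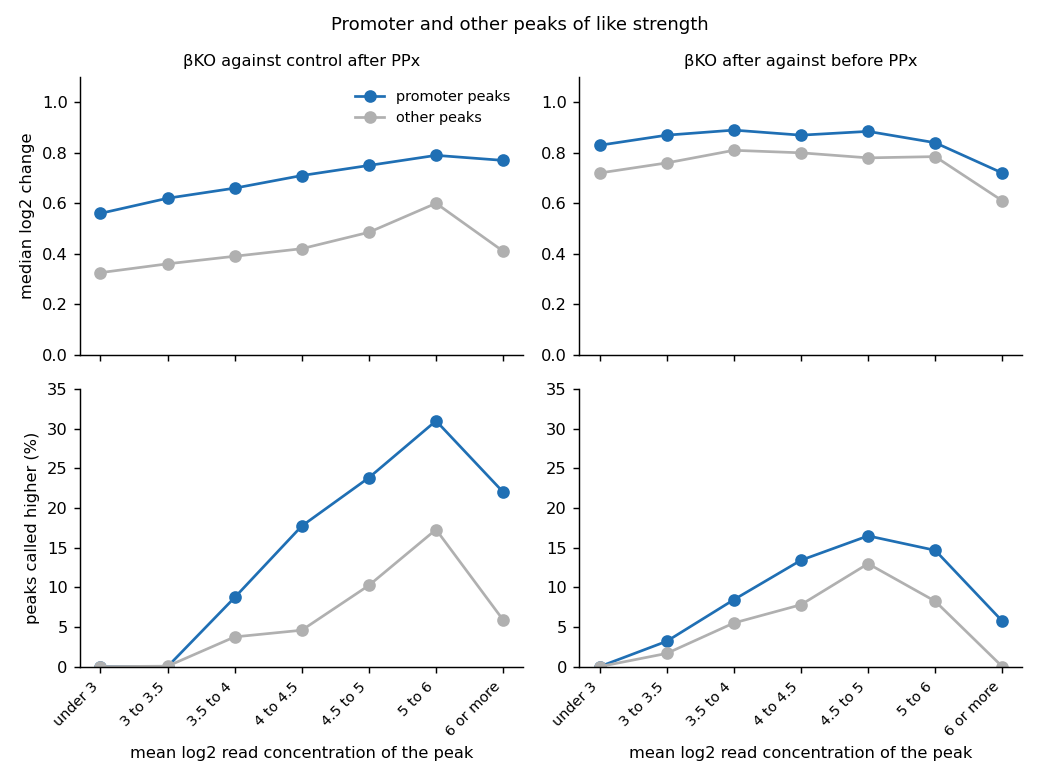
Median log2 change (upper panels) and share of peaks called higher (lower panels) by mean log2 read concentration, for promoter peaks (blue) and other peaks (grey), between genotypes after PPx (left) and over time in βKO islets (right). Promoters lie above other peaks of like strength after PPx, with medians of 0.62 and 0.36 at 3 to 3.5, and closer to them over time.

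The gap between promoters and other peaks differed between comparisons. The promoter median exceeded that of other peaks by 0.33 between genotypes after PPx, by 0.16 between genotypes before it and by 0.08 over time in βKO islets. In control islets over time it was 0.05 lower. Promoter peaks at 1 to 3 kb from the start had a median of 0.47 after PPx, introns 0.37 and distal intergenic peaks 0.39. No test of these gaps was made.

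Promoters were set against RefSeq windows from 250 bases before to 50 after the start (GRCm38.p6, chromosome 18 not included). After PPx, 5012 of 7650 promoter peaks (65.5%) overlapped the window of their annotated gene. The median peak centre lay 41 bases upstream of the start. The windows held a median of 22.5 CpG dinucleotides, against 7 in all 32851 windows, and were 62.0% G or C, against 52.7%.

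Promoters with more CpG were called more often between genotypes after PPx. The share called higher was 8.88% of 428 promoters with 0 to 9 CpG, 12.3% at 10 to 19, 17.2% at 20 to 29, 18.7% at 30 to 39 and 21.3% of 366 with 40 or more. The median change went from 0.62 to 0.83 across these classes. Among promoters of at least median strength the shares went from 15.2% to 31.5%. Over time in βKO islets there was no such order, with 7.03%, 12.1%, 10.6%, 11.5% and 6.35% called and medians of 0.84, 0.89, 0.86, 0.85 and 0.79. Before PPx the medians between genotypes were 0.05 at 0 to 9 and 0.15 at 40 or more. Base composition can also alter recovery in library amplification, and its part in the order was not tested.

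**Figure D5:**
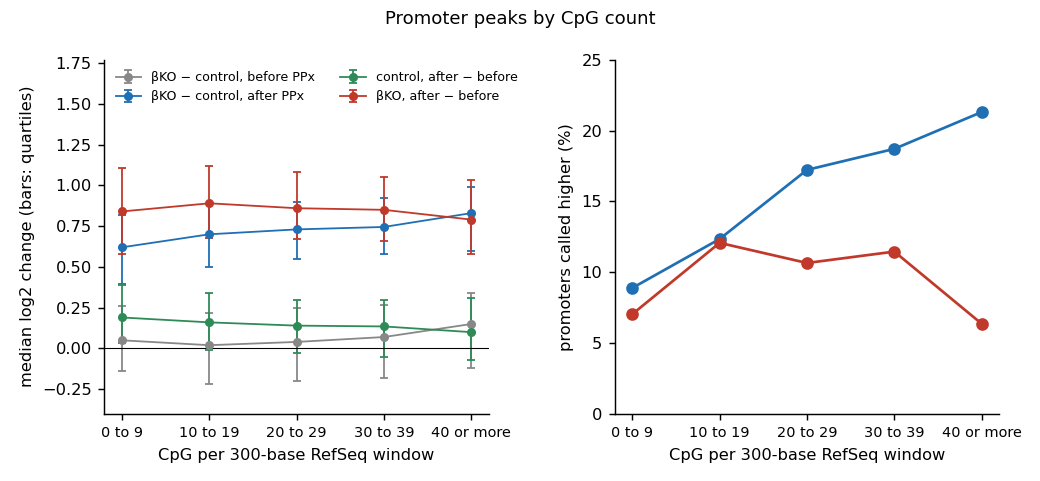
Median log2 change with quartile bars (left) and share of promoters called higher (right) by the number of CpG dinucleotides in the 300-base RefSeq window. Between genotypes after PPx (blue) the share called went from 8.88% to 21.3%, and over time in βKO islets (red) it was 7.03% and 6.35% at the ends.

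Short motifs separated promoters little. Searched on both strands were the NF-Y, GC box, ETS and TATA motifs spelled out above. The motif of the respiratory gene factor NRF1 was taken as GCGCATGCG. That of YY1, a factor found at many core promoters, was taken as AAGATGGCG. The cyclic AMP response element (CRE) was taken as TGACGTCA. The E-box was taken as CACGTG. The AP-1 motif was taken as TGANTCA. Some of them can overlap, and CpG-rich windows hold more of those that contain CG. Median changes with and without a motif differed by -0.05 to 0.05 between genotypes after PPx and by -0.03 to 0.05 over time in βKO islets. The GC box stood in 71.9% of promoter windows, against 35.7% of all windows, and 17.0% of promoters with it were called after PPx, against 12.1% without. The YY1 motif stood in 3.21%, with 10.6% called against 15.8% without, and the AP-1 motif in 3.71%, with 18.3% called against 15.5%. The TATA motif was rarer in these promoters (5.61%) than in all windows (13.6%).

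Promoters were also read by the position of the peak centre. Between genotypes after PPx the median change was 0.72 or 0.73 wherever the peak centre lay from 300 bases upstream to 300 downstream of the start, and 0.66 at 581 peaks centred farther downstream. The share called higher was 17.8% at 100 to 300 bases upstream, 11.8% farther upstream and 10.8% over 300 bases downstream. The median strength of these peaks was 4.37, 4.07 and 3.80, and its part in the shares was not tested. Peaks with starts on both strands, 867 of 7650 (11.3%), had a median of 0.74 and 17.8% called, against 0.72 and 15.1% for those with starts on 1 strand. They were also stronger, with median concentrations of 4.39 and 4.11. Promoters of predicted genes had a median of 0.69 and 135 of 986 called, against 0.72 and 1002 of 6664 for named genes.

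Chromosome 19 had the lowest share called among the chromosomes. Between genotypes after PPx, 10 of its 182 promoters (5.49%) were called higher, with a median of 0.57. The other autosomes ranged from 9.57% (chromosome 5) to 19.9% (chromosome 14). The share of chromosome 19 was also the lowest over time in βKO islets (3.76%), where the βKO libraries after PPx are shared. Between genotypes before PPx its median was -0.1, the lowest of the autosomes. Across 256 windows of 10 Mb with at least 10 promoter peaks, medians ranged from 0.13 to 1.03. The lowest was on chromosome 2 at 170 to 180 Mb, where 20 of 36 peaks are annotated to predicted genes, and the highest on chromosome 3 at 30 to 40 Mb, where 15 of 31 promoters were called. Chromosome 19 and these windows were chosen by their values and are given as a description.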

How the data were processed

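Open chromatin was profiled by ATAC-seq in islets of 15 mice, 40000 islet cells each. Per the submitters' processing notes, the authors used cutadapt, BWA, MACS, DiffBind and ChIPseeker with mm10 (GRCm38). Versions, peak thresholds and the scaling of libraries are not stated there. The 4 deposited tables hold, per the file headers, the authors' group means as log2 concentration, a log2 fold, a p-value, an FDR and the number of libraries in which each peak was called. Values of single libraries and depths were not analysed here. The tables are scaled separately. The same group's median level at shared promoters differed between tables by -0.05 to 0.23 on the log2 scale. Levels printed or drawn side by side from different tables are therefore to be compared only within each table.

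Promoter peaks were those the authors annotated as promoter within 1 kb, 1 row per position. Folds were signed so that a positive value is higher in βKO islets or after PPx, and a call is a deposited FDR under 0.05. Standard errors came from each deposited fold with its p, or, where p was 0.5 or more or the fold under 0.1, from peaks in the same of 20 concentration bins. They served approximate normal tests relative to the table's median and of the difference of genotype changes (peaks sharing at least 1 bp). Benjamini-Hochberg adjustment was over all peaks. These tests are not DiffBind's. They were run on simulated peaks with p-values from the same normal formula and with changes larger than most seen here. That run does not show whether the tests can find changes of the size seen here. Named promoters were, per comparison, the 12 largest called changes of at least median strength, the 4 smallest FDR or p, the 5 strongest, the 5 lowest, up to 3 per list and fixed β cell genes. Other list members named in the text were chosen after their values were seen. The members and the 22 gene lists were chosen with earlier results of these data known. RefSeq windows (GRCm38.p6) ran from 250 bases before to 50 after each start. Python 3.11.15, pandas 2.3.3, numpy 2.4.6, scipy 1.17.1 and matplotlib 3.10.9 were used. The values of 1 list member are not reported here.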

Additional observations from a re-analysis of the deposited data

How the results depend on the processing

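Replicates could not be left out in turn, since group means are what was analysed. No paired analysis was possible because the tables hold no values of single libraries. Between genotypes after PPx, the 1137 promoters called higher became 1 at an FDR under 0.01, 2903 at an FDR under 0.1, 467 with Benjamini-Hochberg adjustment over all listed peaks, 748 among the 4768 peaks over a RefSeq start and 0 relative to the median of all peaks. Those called lower went from 0 to 1 at an FDR under 0.1 and to 4 relative to the median. Over time in βKO islets, the 760 called higher became 3 at an FDR under 0.01, 2986 at an FDR under 0.1, 433 with adjustment over all listed peaks, 504 among the 4793 over a start and 0 relative to the median. In control islets, 1 promoter (Pgk1) was higher relative to the median. The median change fell to 0.11 and 0.03 relative to all peaks, in the genotype comparison after PPx and over time in βKO islets, an alternative chosen after seeing the data. The difference of genotype changes had 0 promoters higher relative to the median difference and 2 with a standard error from bins for every peak. With peaks of high p and large change left out, also chosen after seeing the data, it had 0 higher and 0 lower. Fewer peaks were tested over RefSeq starts, and the cause of the other moves was not tested. Depth is unknown, so its limit on weak promoters cannot be stated.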
